A study of Mus musculus with 6 samples.

Results

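The genes of procollagen folding and maturation encode the enzymes and chaperones that act on collagen chains between their synthesis in the endoplasmic reticulum (ER) and the trimming of procollagen outside the cell. The 10 members, *P4ha1*, *P4ha2*, *P4ha3*, *P4hb*, *Serpinh1*, *Fkbp10*, *Crtap*, *Bmp1*, *Pcolce* and *Pcolce2*, were chosen by function and matched by the array's gene symbol. Of these, 9 were measured, out of 19505 genes with a symbol, each by 1 probe set, the unit in which the array summarizes a transcript. *Fkbp10*, which encodes an ER prolyl isomerase that assists procollagen folding, has no probe set under its symbol in the annotation used and was not analysed here.

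Hearts of 3 *Col1a2-/-* mice were compared with hearts of 3 *Col1a2+/-* mice, all in the C57/BL6 background and 2 months of age, with 1 Affymetrix Clariom S Mouse array per heart. Both groups carry a germline "knockout first" *Col1a2* allele, a cassette insertion present in every cell, so the controls are heterozygous carriers and not wild-type mice. The labels give whole heart and the methods give whole ventricles, and sex is not labelled. The labels number the hearts. The numbers form a 27xx series (*Col1a2+/-* heart 2769, *Col1a2-/-* hearts 2767 and 2770) and a 32xx series (*Col1a2+/-* hearts 3201 and 3294, *Col1a2-/-* heart 3200), and what they mean is not given.

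Collagen chains enter the ER as single strands. Prolyl 4-hydroxylase, an enzyme of α and β subunits, hydroxylates their prolines, which keeps the triple helix stable at body temperature. *Serpinh1* encodes HSP47, a chaperone that binds procollagen that has already formed its helix, and *Crtap* encodes a partner of prolyl 3-hydroxylase 1 and cyclophilin B. After export, the C-proteinase encoded by *Bmp1* removes the C-terminal propeptide, and the enhancer proteins encoded by *Pcolce* and *Pcolce2* speed that cut. In the heart, fibroblasts are the main source of fibrillar collagen. In people, mutations in *SERPINH1*, *FKBP10*, *CRTAP* and *BMP1* cause forms of osteogenesis imperfecta, as do mutations in the type I collagen genes.

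The promoter windows of *P4ha1*, *P4ha2* and *Serpinh1* are shown because *P4ha1* and *P4ha2* encode alternative catalytic subunits of one enzyme and *Serpinh1* encodes the collagen-specific chaperone. The sequences are from RefSeq on build GRCm38.p6 and cover 250 bases before to 50 bases after the annotated start on the gene's own strand. The letters ACGTG or their reverse complement are in capitals, a form of the core that hypoxia-inducible factors are known to bind. The other form, GCGTG, was not searched and is not marked.
P4ha1, chr10:59323046-59323345, plus strand: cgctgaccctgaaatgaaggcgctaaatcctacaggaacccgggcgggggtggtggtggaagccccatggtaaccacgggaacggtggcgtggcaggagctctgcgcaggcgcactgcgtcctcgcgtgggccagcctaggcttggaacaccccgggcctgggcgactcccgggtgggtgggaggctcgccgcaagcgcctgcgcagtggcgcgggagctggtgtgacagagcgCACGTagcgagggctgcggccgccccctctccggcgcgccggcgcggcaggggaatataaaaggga
P4ha2, chr11:54100674-54100973, plus strand: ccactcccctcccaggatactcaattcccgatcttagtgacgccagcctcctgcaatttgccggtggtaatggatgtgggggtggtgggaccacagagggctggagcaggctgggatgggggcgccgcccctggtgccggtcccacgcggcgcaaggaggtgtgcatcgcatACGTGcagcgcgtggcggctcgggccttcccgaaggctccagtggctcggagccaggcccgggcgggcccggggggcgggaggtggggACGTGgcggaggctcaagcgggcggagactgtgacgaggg
Serpinh1, chr7:99353190-99353489, minus strand: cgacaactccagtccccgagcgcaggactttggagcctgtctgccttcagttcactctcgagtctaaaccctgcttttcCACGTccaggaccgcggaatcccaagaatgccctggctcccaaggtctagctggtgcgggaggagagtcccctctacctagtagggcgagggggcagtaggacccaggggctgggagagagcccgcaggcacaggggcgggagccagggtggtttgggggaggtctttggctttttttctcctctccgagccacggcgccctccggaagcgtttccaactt

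A window was found for 8 of the 10 members, all but *Fkbp10* and *Bmp1*. ACGTG was present on either strand in 4 of the 8, those of *P4ha1*, *P4ha2*, *P4hb* and *Serpinh1*, and in 19.6% of 32841 mouse windows of the same length. The TATA letters TATAAA were in 2 of the 8, those of *P4ha1* and *Crtap*, and in 13.6% of all windows. Letters of a heat shock element were also searched on both strands. GAANNTTC was in 0 of the 8 (7.86% of all windows), and TTCNNGAA was in the *P4ha2* window alone (8.52% of all windows). The 8 windows had a median G+C content of 65.3%, against 52.7% over all windows. The CCAAT box letters were in 1 of the 8 and in 37.4% of all windows. These motifs were picked after the sequences had been seen, the matches are descriptions, and no binding was measured in this series.

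The arrays were alike in scale, with median log2 signals between 6.64 and 6.67. The targeted gene followed the labels. In *Col1a2+/-* hearts 2769, 3201 and 3294, *Col1a2* had a log2 signal of 9.47, 9.06 and 9.18, against 6.86, 6.84 and 6.48 in *Col1a2-/-* hearts 2767, 2770 and 3200. The log2 signal of *Col1a2* fell by 2.51 (adjusted p = 0.00626 by limma, standard error 0.19), which was the 1 probe set that passed an adjusted p under 0.05 among the 22206 tested. Without *Col1a2+/-* heart 3294 the adjusted p was 0.0948, and without *Col1a2-/-* heart 2770 it was 0.0562. All 14 markers of cardiomyocytes and 18 of 19 markers of fibroblasts had a mean above the dim limit, a log2 signal of 5.97 set from receptor genes of smell, pheromones and taste. *Col1a2+/-* heart 3294 stood apart from the other 5. Its 7 atrial markers had a summed log2 signal of 18.88, against 16.04 to 17.67. Of the 6 brown fat markers, *Ucp1* and *Adipoq* were high in it, at 8.33 and 7.78 against 3.60 to 4.30 and 5.14 to 5.99. *Cidea*, *Plin1* and *Retn* lay within the range of the other hearts. The sum of the 6, which rests mostly on *Fabp4*, was lowest in it, at 16.50 against 16.73 to 17.18. Its 3 Y-linked genes had a summed log2 signal of 5.62 against 12.48 to 12.94. By these genes heart 3294 reads as female and the other 5 as male, so only the *Col1a2+/-* group would hold both. Sex is not labelled. Values without this heart are therefore given beside those of each member. They set the *Col1a2-/-* hearts, with summed atrial markers of 17.34 to 17.67, against *Col1a2+/-* hearts 2769 and 3201 with 16.04 to 16.32. This sum rests mostly on its brightest gene, *Nppa*, at 17.20 to 17.46 in *Col1a2-/-* hearts against 16.18 and 15.95 in hearts 2769 and 3201. Of the 7 atrial markers, 5 were higher in every *Col1a2-/-* heart than in either of those hearts, all but *Bmp10* and *Nr2f2*. The same held for 4 of the 19 fibroblast markers and 2 of the 14 cardiomyocyte markers, and the share over all probe sets was not counted. Without that share, none of these counts can be told apart from the background. The part of the atrial gap in the values without heart 3294 was not tested.

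None of the 9 measured members differed between the genotypes by the test. At an adjusted p under 0.05 from limma, 0 passed (adjusted p from 0.937 to 0.994), where 0.0045% of all probe sets passed. With the unadjusted p held to 0.05, no member was called in either direction, where 5.45% of all probe sets were, 2.67% as higher and 2.79% as lower. By mean, 4 members lay above and 5 below the *Col1a2+/-* hearts, and the median log2 difference was −0.019, against −0.00062 over all probe sets tested. Without heart 3294 the members' median was 0.057. In each of the 9 the hearts of the genotypes overlapped, and 10.6% of all probe sets did not overlap. With 9 genes these counts lie near the background. The log2 differences ran from −0.32 for *P4ha2* to 0.30 for *Pcolce*. In whole tissue, a change in the number of fibroblasts and a change in the RNA of each fibroblast cannot be told apart. The 19 fibroblast markers had a summed log2 signal of 18.08 to 18.25 in *Col1a2+/-* hearts and 17.99 to 18.08 in *Col1a2-/-* hearts. Every *Col1a2-/-* heart was below every *Col1a2+/-* heart in this sum by a small margin, and the sum rests mostly on its brightest genes, *Dcn* and *Gsn*. Taken singly, 13 of the 19 markers had the higher mean in *Col1a2-/-* hearts, with a median log2 difference of 0.095. Of the 19, 1 passed the unadjusted limit, *Mfap5* as higher (0.52, unadjusted p = 0.00879 from limma), picked out after its values were seen. That limit was passed as higher by 2.67% of all probe sets. The log2 differences of the 19 ran from −0.42 for *Dpep1* to 0.52 for *Mfap5*. *Pdgfra*, also on the fibroblast list, has no probe set under its symbol. The part of the fibroblast markers in the values of the members was not tested.

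**Figure D1:**
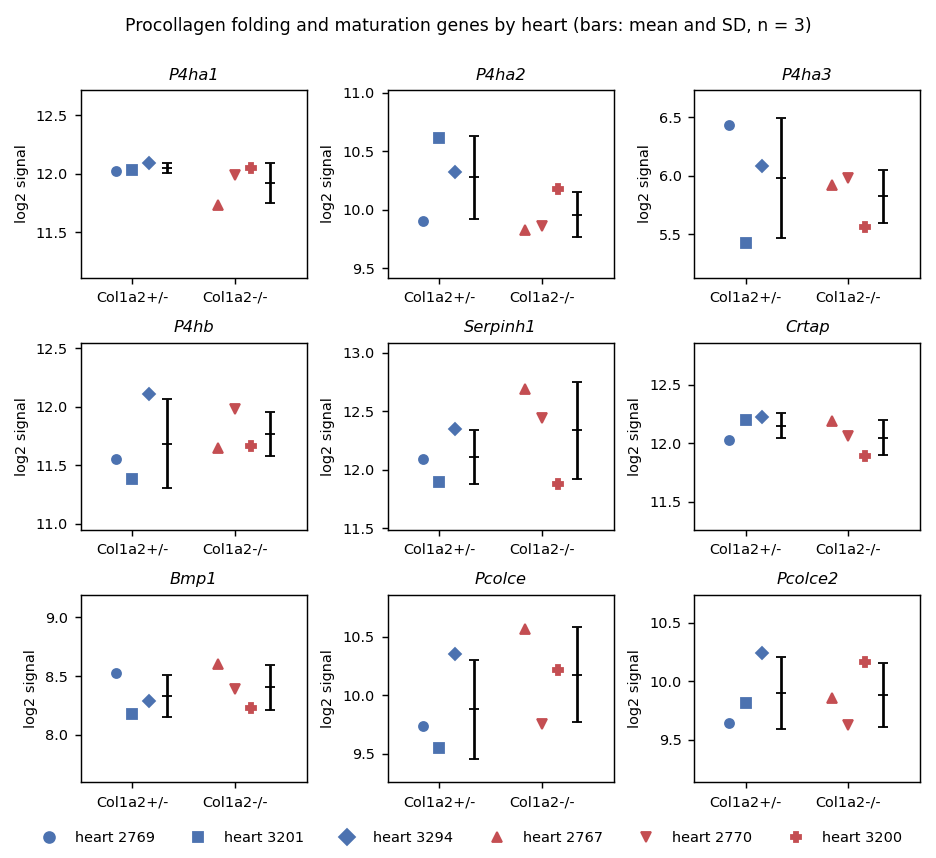
Log2 signal (vertical axis, each panel spanning the same 1.6 log2 units) of the 9 measured genes in the 3 *Col1a2+/-* hearts (blue) and the 3 *Col1a2-/-* hearts (red), with 1 symbol shape per heart and the mean and SD of each genotype in black (n = 3). The genotypes overlap in every panel, and *Col1a2+/-* heart 3294 is the highest heart for *P4ha1*, *P4hb*, *Crtap* and *Pcolce2*.

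The genes of the α subunits of prolyl 4-hydroxylase each had a lower mean in *Col1a2-/-* hearts, and none passed. *P4ha1*, the widely used catalytic subunit, had a log2 signal of 12.02, 12.03 and 12.09 in *Col1a2+/-* hearts 2769, 3201 and 3294, against 11.73, 11.99 and 12.04 in *Col1a2-/-* hearts 2767, 2770 and 3200. The *Col1a2+/-* hearts lay within a narrow band, with *Col1a2-/-* heart 2770 just below it, heart 2767 further below and heart 3200 inside it. Its log2 difference was −0.13 (95% interval −0.49 to 0.24), a fold of 0.916. It was −0.10 without heart 3294 and −0.031 without heart 2767. Within the 27xx and 32xx series it was −0.16 and −0.016.

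*P4ha2*, the catalytic subunit known for its high level in cartilage and bone, had 9.90, 10.61 and 10.32 (log2 signal) in *Col1a2+/-* hearts 2769, 3201 and 3294, and 9.83, 9.86 and 10.18 in *Col1a2-/-* hearts 2767, 2770 and 3200. Heart 2769 lay with the lower *Col1a2-/-* hearts, and its fellows 3201 and 3294 lay above all of them. The log2 difference of −0.32 (standard error 0.21, 95% interval −0.80 to 0.16) was the furthest from 0 among the members, with a fold of 0.801 and an adjusted p of 0.937 from limma. Without heart 2769 it was −0.51, with an unadjusted p of 0.0386 and an adjusted p of 0.752 from limma, and 3.33% of all probe sets were lower at that limit without this heart. It was −0.30 without heart 3294 and −0.15 without heart 3201. A fit with the label series as a block gave −0.17, and within the 27xx and 32xx series it was −0.055 and −0.29.

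*P4ha3*, the third gene of an α subunit, was dim, with a mean log2 signal of 5.90, under the dim limit. Its log2 signal was 6.43, 5.42 and 6.08 in *Col1a2+/-* hearts 2769, 3201 and 3294, and 5.92, 5.98 and 5.56 in *Col1a2-/-* hearts 2767, 2770 and 3200. The *Col1a2+/-* hearts held both the highest and the lowest value. Its log2 difference was −0.16 (95% interval −0.75 to 0.43). It ran from −0.44 without heart 3201 to 0.070 without heart 2769, and was −0.11 without heart 3294. Within the 27xx and 32xx series it was −0.48 and −0.19.

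*P4hb* encodes the β subunit of prolyl 4-hydroxylase, which is also protein disulfide isomerase and serves many ER clients besides collagen. Its log2 signal was 11.56, 11.38 and 12.11 in *Col1a2+/-* hearts 2769, 3201 and 3294, and 11.65, 11.98 and 11.66 in *Col1a2-/-* hearts 2767, 2770 and 3200. Heart 3294 was the highest of all 6, while the other *Col1a2+/-* hearts lay below each *Col1a2-/-* heart. The log2 difference was 0.082 (95% interval −0.41 to 0.58), and 0.30 without heart 3294 (unadjusted p = 0.157 from limma). Within the 27xx and 32xx series it was 0.26 and −0.084. The summed atrial markers were also highest in heart 3294, and their part in this value was not tested.

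*Serpinh1* had a log2 signal of 12.09, 11.90 and 12.35 in *Col1a2+/-* hearts 2769, 3201 and 3294, against 12.69, 12.44 and 11.88 in *Col1a2-/-* hearts 2767, 2770 and 3200. Hearts 2767 and 2770 were above every *Col1a2+/-* heart, and heart 3200 was the lowest of the 6. The log2 difference was 0.23 (standard error 0.23, 95% interval −0.30 to 0.75), a fold of 1.17 with an interval from 0.812 to 1.69 and an adjusted p of 0.956 from limma. It was 0.35 without heart 3294, 0.46 without heart 3200 (unadjusted p = 0.0644) and 0.052 without heart 2767. By label series, it was 0.48 in the 27xx series and −0.24 in the 32xx series, so the sign differed between them. In a limma fit of genotype by series, chosen after seeing the data, the difference between the series was −0.72 (95% interval −1.73 to 0.29, adjusted p = 1.00 over all probe sets, unadjusted p = 0.138), with 2 residual degrees of freedom.

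*Crtap* had a log2 signal of 12.03, 12.20 and 12.22 in *Col1a2+/-* hearts 2769, 3201 and 3294, against 12.19, 12.06 and 11.89 in *Col1a2-/-* hearts 2767, 2770 and 3200. All 6 values lay close together, with heart 3200 the lowest. Its log2 difference was −0.10 (95% interval −0.47 to 0.27), and −0.065 without heart 3294. Within the 27xx and 32xx series it was 0.099 and −0.32. The interval leaves folds from 0.722 to 1.20.

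**Figure D2:**
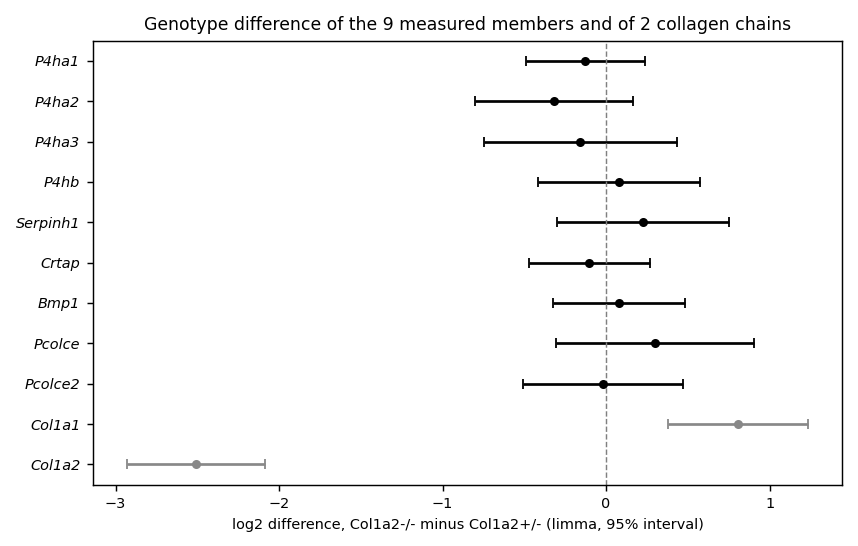
Log2 difference, *Col1a2-/-* minus *Col1a2+/-* (horizontal axis), with the 95% interval from limma, for the 9 measured members (black) and for the type I collagen chains *Col1a1* and *Col1a2* (grey), 3 hearts per genotype. The differences of the 9 members run from −0.32 for *P4ha2* (interval −0.80 to 0.16) to 0.30 for *Pcolce* (interval −0.31 to 0.90). The intervals of all 9 include 0, while those of *Col1a1* (difference 0.81) and *Col1a2* (difference −2.51) do not.

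Among the genes of procollagen trimming, *Bmp1*, whose product also cleaves other matrix proteins and the lysyl oxidase precursor, had a log2 signal of 8.52, 8.18 and 8.28 in *Col1a2+/-* hearts 2769, 3201 and 3294, against 8.61, 8.39 and 8.22 in *Col1a2-/-* hearts 2767, 2770 and 3200. Hearts 2769 and 2767, both of the 27xx series, were the highest of their genotypes. For *Bmp1* the log2 difference was 0.078 (95% interval −0.32 to 0.48), and 0.057 without heart 3294. Within the 27xx and 32xx series it was −0.025 and −0.0072, on the other side of 0 in both.

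*Pcolce*, the main enhancer of the C-proteinase, had a log2 signal of 9.74, 9.55 and 10.35 in *Col1a2+/-* hearts 2769, 3201 and 3294, against 10.56, 9.76 and 10.21 in *Col1a2-/-* hearts 2767, 2770 and 3200. Heart 3294 was above *Col1a2-/-* hearts 2770 and 3200, and the other *Col1a2+/-* hearts were below every *Col1a2-/-* heart. The log2 difference was 0.30 (standard error 0.27, 95% interval −0.31 to 0.90), a fold of 1.23 with an interval from 0.808 to 1.87 and an adjusted p of 0.946 from limma. Without heart 3294 it was 0.54 (unadjusted p = 0.0706, adjusted p = 0.938 from limma), and without heart 2767 it was 0.11. Its sign was the same within the 27xx and 32xx series, at 0.42 and 0.26.

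*Pcolce2*, a related enhancer, had a log2 signal of 9.64, 9.82 and 10.24 in *Col1a2+/-* hearts 2769, 3201 and 3294, against 9.85, 9.63 and 10.17 in *Col1a2-/-* hearts 2767, 2770 and 3200. Its hearts were interleaved, with 3294 and 3200 the highest of their genotypes, both of the 32xx series. The log2 difference was −0.019 (95% interval −0.51 to 0.47), and 0.15 without heart 3294. Within the 27xx and 32xx series it was 0.095 and 0.14, on the other side of 0 in both.

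The members did not move as a block from heart to heart. *Col1a2+/-* heart 3294 had the highest value for 4 of the 9 genes, *Col1a2-/-* heart 2767 for 3, and *Col1a2+/-* hearts 2769 and 3201 for 1 each. Heart 3201 had the lowest value for 4 genes, *P4ha3*, *P4hb*, *Bmp1* and *Pcolce*. Heart 2767 was highest for *Serpinh1*, *Bmp1* and *Pcolce* and lowest for *P4ha1* and *P4ha2*. The SD within a genotype, pooled over both, had a median of 0.29 over the members, against 0.24 over all probe sets tested. Over the probe sets above the dim limit, where 8 of the 9 members lay, this median was 0.21. The median size of the log2 difference, sign aside, was 0.13 for the members and 0.15 for all probe sets. For the probe sets above the dim limit it was 0.14. The plot of differences with each heart left out shows that *P4ha3*, *P4hb*, *Bmp1* and *Pcolce2* took both signs.

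**Figure D3:**
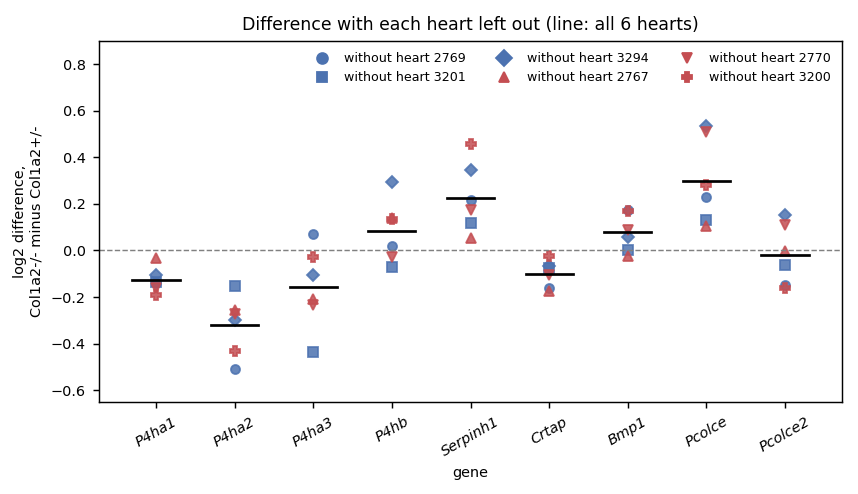
Log2 difference, *Col1a2-/-* minus *Col1a2+/-* (vertical axis), of each member with 1 heart left out, with the symbol shape and colour of the heart left out and a black line for all 6 hearts. Points of *P4ha3*, *P4hb*, *Bmp1* and *Pcolce2* lie on both sides of 0, and those of *Pcolce* run from 0.11 without heart 2767 to 0.54 without heart 3294.

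The pattern of *Serpinh1* over the 6 hearts was set beside those of 11530 other genes with a symbol and a mean above the dim limit. The most alike were *Pgp*, a phosphatase of glycolate metabolism (Pearson's r = 0.991), *Snrpa*, a spliceosome protein (0.9896), *Wdpcp*, a gene of cilia and cell polarity (0.989), *Col15a1*, a basement membrane collagen (0.984), and *Blnk*, an adaptor of B cell signalling (0.982). These are descriptions over 6 arrays that share their genotypes, and 92 genes, 0.798%, reached r of at least 0.9. Among the members, *Bmp1* was the most alike (r = 0.711) and *P4ha1* the least (r = −0.690). *Col1a1* had r = 0.653.

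The other genes of the same pathway were set beside the members from a list of 29, of which 27 were measured and 24 had a mean above the dim limit. By limma, 0 of the 27 reached an unadjusted p of 0.05 in either direction, against 5.45% of all probe sets, a count of this size being near the background, and their median log2 difference was −0.0011. The prolyl 3-hydroxylases and their partner, *P3h1*, *P3h2*, *P3h3* and *P3h4*, had log2 differences from −0.20 to 0.00079. The lysyl hydroxylases *Plod1* and *Plod2* and the galactosyltransferases *Colgalt1* and *Colgalt2*, which modify lysines of collagen, had −0.080 to 0.44. The ER isomerases *Ppib*, *Fkbp14*, *Fkbp9* and *Fkbp7* had −0.14 to 0.13. The 9 genes of ER export and its control, such as *Mia3*, whose product TANGO1 loads procollagen into carriers, had −0.19 to 0.20. The N- and C-proteinases measured, *Adamts3*, *Adamts14*, *Tll1*, *Tll2*, *Mep1a* and *Mep1b*, had −0.25 to 0.28, and 3 of these 6 lay under the dim limit.

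Chaperones and enzymes of the ER that serve proteins at large were also without a call. Of 18 measured, such as *Hspa5* and *Calr*, 0 reached that limit in either direction, with a median log2 difference of −0.029. Of 10 fibrillar chains, the substrates of this machinery other than *Col1a2*, 2 passed that limit as higher, against 2.67% of all probe sets, and 0 as lower. Their median log2 difference was 0.16, and 4 of the 10 were brighter than the dim limit on average. The plot of differences by list shows *Col1a1* and *Col3a1* as the highest points. In *Col1a2+/-* hearts 2769, 3201 and 3294, *Col1a1* had a log2 signal of 8.71, 8.77 and 8.86, against 9.94, 9.47 and 9.36 in *Col1a2-/-* hearts 2767, 2770 and 3200. Its log2 difference was 0.81 (95% interval 0.38 to 1.24, unadjusted p = 0.00215, adjusted p = 0.838 from limma), with no overlap between the genotypes. For *Col3a1* it was 0.64 (95% interval 0.11 to 1.18, adjusted p = 0.893 from limma).

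**Figure D4:**
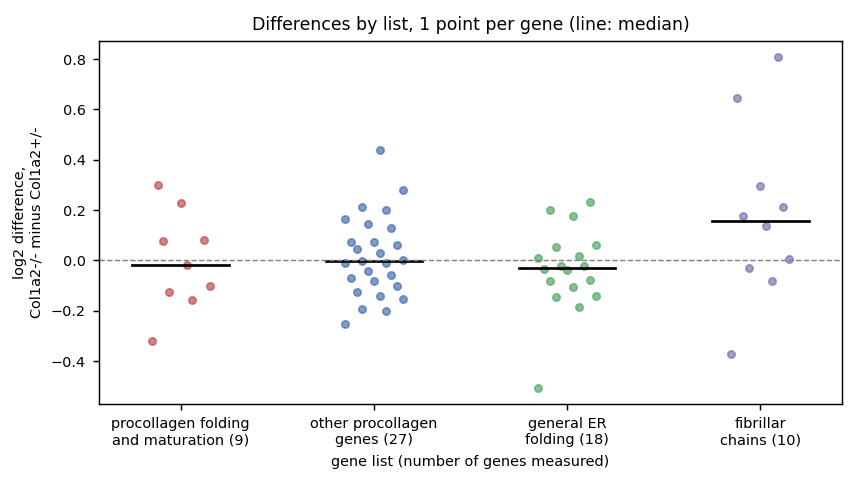
Log2 difference, *Col1a2-/-* minus *Col1a2+/-* (vertical axis), with 1 point per gene measured and a line at the median of each list (3 hearts per genotype). The 9 members (median −0.019), 27 other procollagen genes (−0.0011) and 18 general ER folding genes (−0.029) centre near 0, and the 10 fibrillar chains have a median of 0.16.

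Whether the members followed *Col1a1*, a chain on which they act, was asked by taking each member's log2 value minus that of *Col1a1* within each heart. All 9 were lower in *Col1a2-/-* hearts on this relative scale, with log2 differences from −1.13 for *P4ha2* to −0.51 for *Pcolce*. For *Serpinh1* it was −0.58 and for *P4hb* −0.73. The genotypes did not overlap in 8 of the 9, all but *Pcolce*. The two-sided exact permutation p was 0.1 for each of the 8, the smallest that 3 hearts against 3 allow, and 0.113 when adjusted over the 9. For *Pcolce* it was 0.2. The same was true of most of the array, since 76.5% of all probe sets were lower than *Col1a1* in this way without overlap and 0.00901% were higher without overlap, so nothing in it is particular to these genes. Relative to *Col3a1*, all 9 were again lower, from −0.96 to −0.35, and 4 of the 9 did not overlap, where 42.3% of all probe sets were lower without overlap and 0.00901% higher.

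The sums of other marker lists rest mostly on their brightest genes, so counts of single markers are given beside them. The 14 cardiomyocyte markers had a summed log2 signal of 22.05 to 22.11 in *Col1a2+/-* hearts and 22.06 to 22.10 in *Col1a2-/-* hearts. The 7 macrophage markers had 12.89 to 13.10 and 13.08 to 13.38, the 9 smooth muscle markers 15.92 to 16.16 and 15.92 to 16.11, and the 7 endothelial markers 15.27 to 15.65 and 15.53 to 15.80. All of these ranges overlap. By single markers, 8 of the 9 smooth muscle markers had the higher mean in *Col1a2-/-* hearts (median log2 difference 0.24). Of the 9, 2 passed the unadjusted limit as higher, *Notch3* (0.53) and *Mcam* (0.86), where 2.67% of all probe sets did. The genotypes overlapped for *Mcam*, and *Acta2* had the lower mean (−0.54). Of the macrophage markers 6 of 7 had the higher mean (median 0.16). *C1qa* (0.35) passed that limit, while *C1qb* (0.011) and *C1qc* (−0.14) did not. Of the endothelial markers 5 of 7 had the higher mean (median 0.16) and 0 passed. *Notch3*, *Mcam* and *C1qa* were singled out after their values were seen. The 9 cartilage markers, of which 3 had a mean above the dim limit, had 8.65 to 9.13 and 8.95 to 9.10, and of 6 brown fat markers 2 had a mean above it. The 2 red cell markers had 9.64 to 10.18 and 9.37 to 10.03. What these markers contribute to the members' values was not tested.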

How the data were processed

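Total RNA of 6 mouse hearts, extracted with Trizol and labelled with a Pico kit, was hybridized to Affymetrix Clariom S Mouse arrays. Values are on the log2 scale, 1 per probe set and array, as deposited by the authors after summary in their array software. Affymetrix Expression Console stands in the submitters' processing notes and Transcriptome Analysis Console in the methods. The normalization and the versions used are not given in the sources used here. Differences compressed or shifted by that step would carry into every value. No further normalization was applied.

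Of 28846 entries, 6640 controls were left out and 22206 were tested. Symbols came from the platform annotation (19572 probe sets with 1 symbol, 2634 with none, 0 with several). The brightest probe set stood for a gene. The dim limit was the 95th percentile of 1447 probe sets of olfactory, vomeronasal and taste receptors, and 12828 probe sets lay above it. Genotypes were compared with lmFit and eBayes of limma 3.58.1 in R 4.3.3 without covariates, with 4 residual degrees of freedom and Benjamini-Hochberg adjustment over all probe sets. The number of arrays limits the precision. Each heart has a label number of its own and was taken as 1 animal, and litters are not given. Values relative to *Col1a1* were tested by exact permutation. Named were all members, *Col1a2*, *Col1a1*, genes of the other procollagen, ER and fibrillar lists at an unadjusted p under 0.05, and the 5 genes most like *Serpinh1*. Other genes named in those lists stand as examples or as whole groups. The members and lists were chosen with earlier results of these data known. The code was tested on simulated data. Figures were drawn with matplotlib 3.10.9.

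Alternatives were quantile normalization, median centring, a filter on dim probe sets, a trended and robust prior, Student's t-test as the methods name it for group comparisons, array weights, a block for the label series and values within each, a single probe set for each gene, *Col3a1* in place of *Col1a1*, and each heart left out. A fit of genotype by label series was added after seeing the data. The marker lists were of fibroblasts, cardiomyocytes, atrium, brown fat, endothelium, macrophages, smooth muscle, cartilage, red cells and the Y chromosome.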

Additional observations from a re-analysis of the deposited data

How the results depend on the processing

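No member passed an adjusted p under 0.05 under any alternative run. With all hearts, the counts of members at an unadjusted p under 0.05 stayed at 0 higher and 0 lower. With each heart left out they were 0 higher and 0 to 1 lower, the 1 being *P4ha2* without *Col1a2+/-* heart 2769, where the cause was not tested. The difference of *Col1a2* stayed at −2.51 with the methods' t-test, where it no longer passed (adjusted p = 0.410), and ran from −2.60 to −2.39 with each heart left out, where it did not pass without hearts 3294 and 2770. Signs turned for 6 of the 9 members. With array weights *Pcolce2* was 0.021, and with the series as a block it was 0.12 and *Bmp1* was −0.016. Within the 27xx series *Crtap* was 0.099, *Bmp1* −0.025 and *Pcolce2* 0.095, and within the 32xx series *P4hb* was −0.084, *Serpinh1* −0.24, *Bmp1* −0.0072 and *Pcolce2* 0.14. With each heart left out, *P4ha3* ran from −0.44 to 0.070, *P4hb* from −0.069 to 0.30, *Bmp1* from −0.022 to 0.18 and *Pcolce2* from −0.16 to 0.15. Each member has 1 probe set, so the mean over probe sets gave no other value. *P4ha3* drops out when dim probe sets are left out. The number of hearts, 3 per genotype, sets the width of the intervals.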
